A study of Mus musculus with 16 samples.

Results

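The genes described here encode proteins of the Z-disc or proteins that respond to load, and 10 were chosen by name from the 24421 genes of the count tables. They are the alpha-actinins Actn2 and Actn3, the myozenins Myoz1, Myoz2 and Myoz3, telethonin (Tcap), the muscle LIM protein Csrp3, the muscle ankyrin repeat proteins Ankrd1 and Ankrd2, and Xirp1. Each of the 10 was found under its own symbol in both muscles. RNA-seq of poly(A)-selected RNA was done on the soleus (Sol), which is rich in slow fibers, and on the gastrocnemius (Gas), a fast fiber-dominant muscle. All mice were male C57BL/6, were 8 weeks old when treatment began, and were given dexamethasone (Dex), a synthetic glucocorticoid, on 7 days at 1 mg/kg, after the start of 5 days of tamoxifen at 75 mg/kg. LSD1-mKO mice were Lsd1 flox/flox with a CreERT2 recombinase under the human ACTA1 promoter, which is active in differentiating and differentiated muscle cells, so resident cells of other kinds keep the gene. WT mice carried the floxed Lsd1 but no CreERT2, so the loss of LSD1 and the presence of CreERT2 cannot be told apart. They received both drugs, and no muscle without Dex or tamoxifen enters any comparison. There were 3 WT and 5 LSD1-mKO libraries in each muscle. The labels do not say that the libraries of a group came from separate animals, so the p-values measure only the spread between these libraries.

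The Z-disc is the protein lattice that borders each sarcomere and anchors the actin filaments of its neighbors. Alpha-actinin crosslinks those filaments, telethonin caps the end of titin, and myozenins bind alpha-actinin, telethonin and the phosphatase calcineurin. Csrp3, Ankrd1, Ankrd2 and Xirp1 are known as genes that respond to stretch or load, and their proteins are thought to link mechanical strain at the Z-disc and the titin filament to gene expression.

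The libraries held between 10130415 and 24576377 counted reads. Levels are given as CPM, a gene's read count scaled to the size of its library, with TMM over all 16 libraries. Kdm1a, the symbol of the targeted Lsd1 gene, had 37.2 to 48.2 CPM in WT Gas and 12.0 to 17.7 CPM in LSD1-mKO Gas, and 33.4 to 34.9 CPM in WT Sol and 9.12 to 12.9 CPM in LSD1-mKO Sol. Summed slow fiber markers reached 734 to 2001 CPM in Gas and 17310 to 24780 CPM in Sol, and summed fast fiber markers 67419 to 135865 CPM in Gas and 18392 to 46111 CPM in Sol. Not all fast markers were lower in Sol. In each genotype 4 of the 6 were lower and 2 higher. Mean Myh2 was 1909 CPM in WT Gas and 12837 CPM in WT Sol, and mean Myh1 4340 and 7657 CPM. Of the Gas libraries, WT Gas replicate 3 stood apart, at 89.6 on the first principal component against -30.4 to 22.4 for the others. A length slope was computed for each library, the change in level, relative to the mean of its muscle, per doubling of a gene's exon length. It was -0.40 log2 units in WT Gas replicate 3, -0.21 in LSD1-mKO Gas replicate 5, -0.28 in WT Sol replicate 2 and between -0.01 and 0.21 in the other 13 libraries. A negative slope means that genes with long exons had fewer reads, relative to genes with short exons, than in the other libraries. The same libraries had the highest ribosomal protein levels of their muscle, in that order 8.43, 7.78 and 7.32 log2 CPM.

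Promoters were read from a RefSeq table for GRCm38.p6, which held 250 bases before and 50 after the transcription start of 5 of the 10 genes, namely Actn2, Myoz2, Csrp3 (with 2 starts), Ankrd1 and Ankrd2. The letters CATTCC of the MCAT box, to which TEAD factors bind, occurred on either strand in 14.7% of the 32851 promoters of that table. Of these 5 genes, Ankrd1 held it, at 2 places. The E-box CANNTG, to which myogenic factors such as MyoD bind, was found in 72.3% of promoters and in all 6 of these. All motifs were sought on both strands. No CArG box, the site of SRF, was found in these 6. Only 1.63% of all promoters held one, so its absence from so few does not set them apart. The 2 Ankrd1 places are shown in 30 bases each because they set this promoter apart from the others of the group, and Csrp3 and Ankrd2 are shown from 250 to 51 bases before the start because their levels moved together most closely of all pairs of these genes. All are written 5′ to 3′ along the gene, and capitals mark the MCAT box, as GGAATG on the opposite strand, or the E-boxes. The Ankrd1 stretches lie at chr19:36120037-36120066 and chr19:36119950-36119979 and that of Csrp3 at chr7:48848102-48848301, all on the minus strand, and that of Ankrd2 at chr19:42035777-42035976 on the plus strand.
Ankrd1, upstream MCAT box: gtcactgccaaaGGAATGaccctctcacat
Ankrd1, downstream MCAT box: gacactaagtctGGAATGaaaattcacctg
Csrp3, E-boxes: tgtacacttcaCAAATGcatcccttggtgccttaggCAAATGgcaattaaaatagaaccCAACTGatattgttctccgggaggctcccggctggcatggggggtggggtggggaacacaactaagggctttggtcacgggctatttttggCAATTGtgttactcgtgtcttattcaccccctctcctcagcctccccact
Ankrd2, E-boxes: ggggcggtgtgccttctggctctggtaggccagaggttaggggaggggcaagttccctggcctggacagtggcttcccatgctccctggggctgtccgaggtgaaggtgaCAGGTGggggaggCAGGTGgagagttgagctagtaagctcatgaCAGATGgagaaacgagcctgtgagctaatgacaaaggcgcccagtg
One GENCODE transcript of Ankrd1 begins further upstream than the RefSeq start used here. These matches describe the letters of the windows and do not show that a factor was bound.

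Levels were compared between genes as CPM per kb of exon. In WT Gas, Tcap was first at 9207 ± 6533 CPM per kb (SD, n = 3), followed by Actn3 at 4012 ± 1711 and Myoz1 at 2468 ± 119. The lowest were Myoz3 at 50.3 ± 9.70, Ankrd1 at 44.7 ± 52.8 and Xirp1 at 32.8 ± 9.84. Between these came Ankrd2, Actn2, Csrp3 and Myoz2, from 623 ± 448 down to 170.2 ± 47.7. Only 2 of the 9 neighboring pairs in this order lay further apart than their SDs, Myoz1 above Ankrd2 and Myoz2 above Myoz3. In WT Sol, Tcap was again first at 6948 ± 2995 CPM per kb, and Ankrd2 at 1993 ± 174 and Actn2 at 1832 ± 218 followed, with ranges that overlapped each other. Myoz2 stood at 1284 ± 86.1, Csrp3 at 987 ± 227 and Myoz1 at 434 ± 116, while Actn3 had 106 ± 93.7 and Ankrd1 was lowest at 14.5 ± 8.51 (SD, n = 3). The ranges lay apart in 5 of the 9 neighboring pairs of WT Sol, in 5 of 9 in LSD1-mKO Gas and in 4 of 9 in LSD1-mKO Sol. No gene of the 10 was close to the detection limit, and the fewest reads in any library were 219, for Ankrd1 in LSD1-mKO Gas replicate 4.

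**Figure D1:**
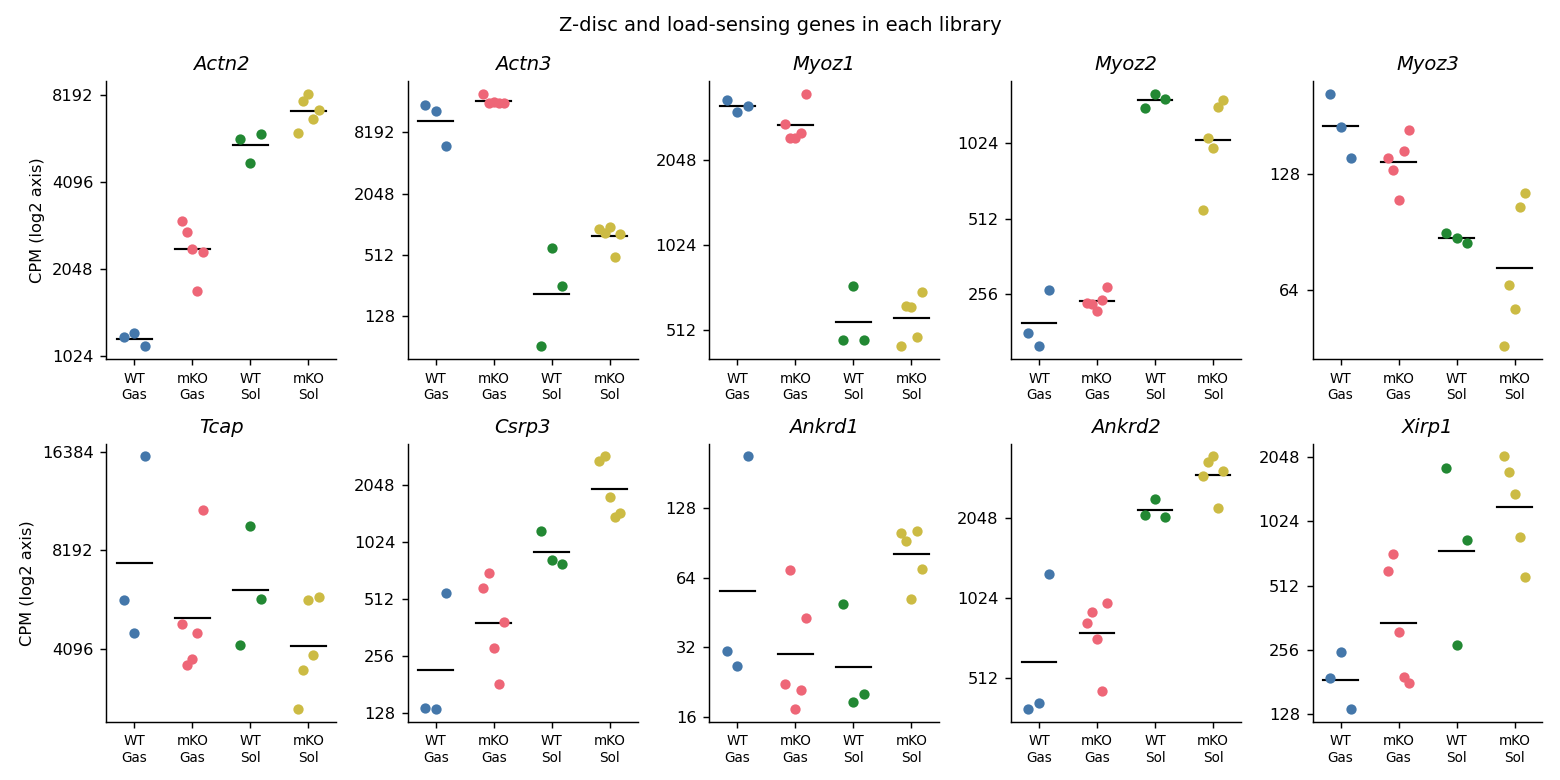
CPM of each gene in each of the 16 libraries on a log2 axis, by genotype and muscle (WT n = 3, LSD1-mKO, written mKO, n = 5), with points for libraries in replicate order from left to right and a line at the mean of the log2 values. Actn2, Myoz2, Csrp3, Ankrd2 and Xirp1 are higher in Sol and Actn3, Myoz1 and Myoz3 higher in Gas, and WT Gas replicate 3 holds the highest value of its group in Tcap, Csrp3, Ankrd1 and Ankrd2.

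The comparison of Sol with Gas within a genotype asks how these genes differ between a slow and a fast muscle. In WT, 8 of the 10 passed an adjusted p of 0.05, which 17.0% of the 13749 genes tested did. Of these, 5 were higher in Sol (Actn2, Myoz2, Csrp3, Ankrd2 and Xirp1), as were 8.75% of all genes, and 3 were lower (Actn3, Myoz1 and Myoz3), as were 8.25%. In LSD1-mKO the same 8 genes passed, in the same directions, where 24.5% of all genes did, with 12.9% higher and 11.6% lower. Tcap and Ankrd1 did not pass in either genotype. The share of all genes without overlap between muscles is not given, so statements of overlap between muscles below describe these libraries only. The libraries of each muscle carry their own series of codes in the labels, so muscle and any handling in separate runs cannot be told apart. In bulk muscle, fewer fibers of a type and less RNA per fiber cannot be told apart either.

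**Figure D2:**
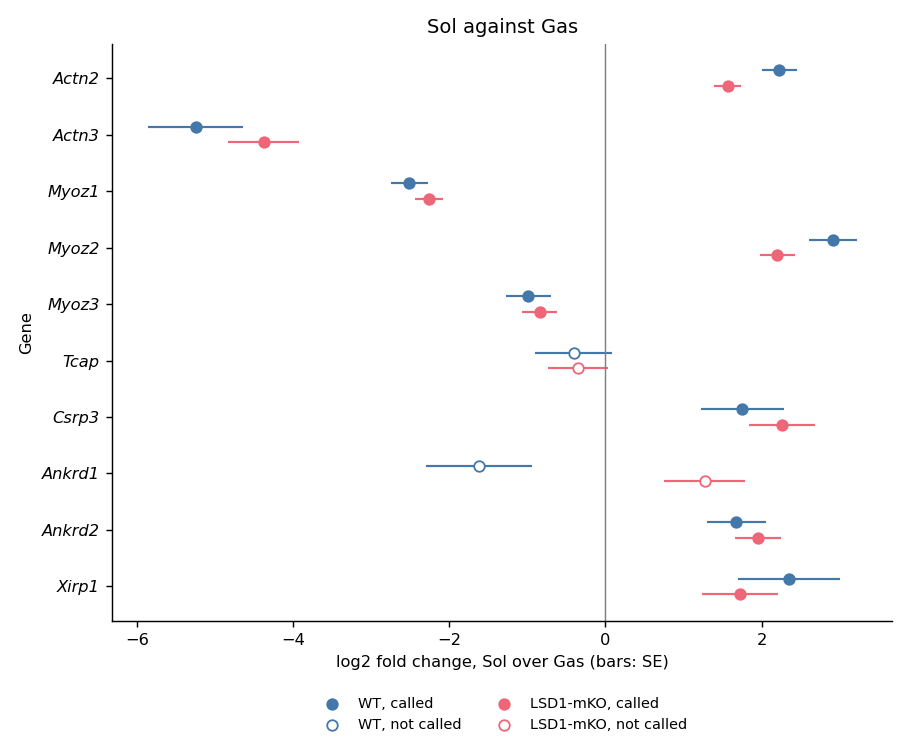
Log2 fold change of Sol over Gas for each gene in WT (blue) and LSD1-mKO (red), with bars of 1 SE, filled points where the adjusted p was under 0.05 and open points elsewhere. The values run from -5.25 for Actn3 to 2.92 for Myoz2 in WT, and Ankrd1 lies at -1.61 in WT and 1.27 in LSD1-mKO, neither called.

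Of the 10 genes, Actn3 had the largest fold change between muscles in both genotypes. On GRCm38, Actn2 spans chromosome 13 from 12269426 to 12340760 and Actn3 chromosome 19 from 4861216 to 4877909. Actn3, the isoform of fast glycolytic fibers, had 15353, 13402 and 5989.8 CPM in the WT Gas libraries and 65.0, 598 and 252 CPM in those of WT Sol. In LSD1-mKO it had 19706, 15875, 16182.5, 15874 and 15868 CPM in Gas and 914, 848, 962, 488 and 819 CPM in Sol. The muscles were far apart, and the WT Sol libraries spread widely among themselves. The log2 fold change of Sol over Gas was -5.25 in WT (SE 0.612, adjusted p 2.44e-05) and -4.37 in LSD1-mKO (SE 0.455, adjusted p 3.59e-06). The WT value was -6.20 without WT Sol replicate 2 and -4.77 without WT Sol replicate 1. Actn2, which is made in all fibers, had 1198, 1234 and 1109.6 CPM in WT Gas and 5760.1, 4774 and 6022 CPM in WT Sol. In LSD1-mKO it had 3006, 2751, 2408, 1721 and 2349 CPM in Gas and 6046, 7843, 8289.9, 6771 and 7264 CPM in Sol. Every Sol library exceeded every Gas library, and the log2 fold change was 2.22 in WT (SE 0.224, adjusted p 6.53e-06) and 1.57 in LSD1-mKO (SE 0.170, adjusted p 5.49e-06). Per kb of exon, Actn2 made up 6.96% to 15.1% of the sum of both sarcomeric alpha-actinins in the Gas libraries and 86.4% to 98.8% in those of Sol, with overlapping genotypes in each muscle. The non-muscle paralogs Actn1 and Actn4 were low, with group means of 15.8 to 18.6 CPM and 64.3 to 90.5 CPM, and neither passed in any of the comparisons of muscles or genotypes.

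**Figure D3:**
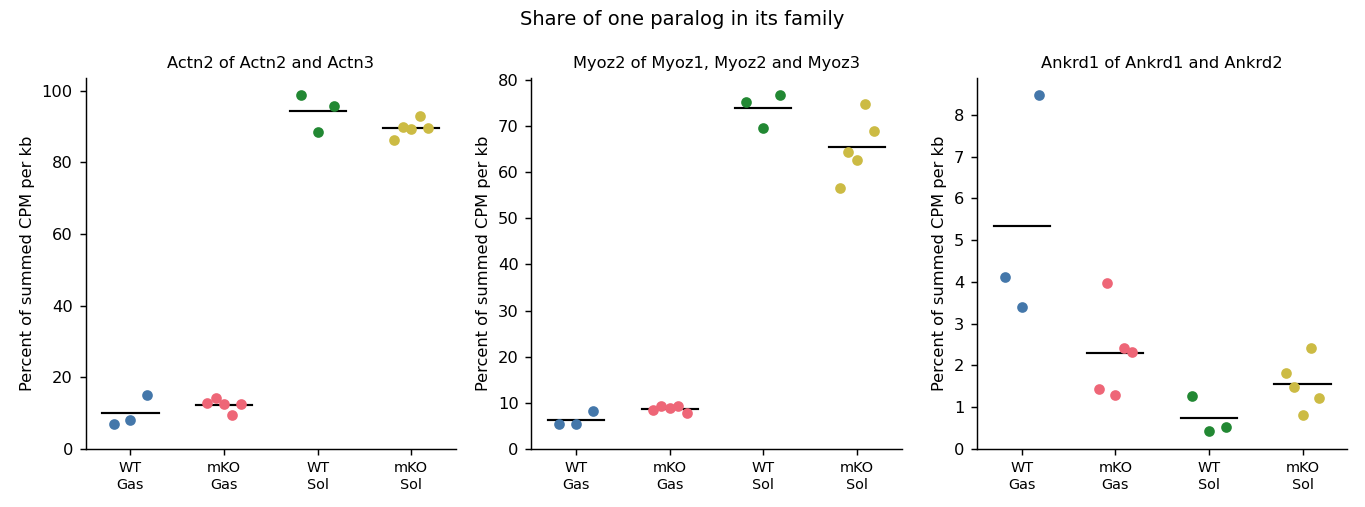
Share of one paralog in the summed CPM per kb of its family in each library, by genotype and muscle (WT n = 3, LSD1-mKO, written mKO, n = 5), with lines at the means. The Actn2 share is at most 15.1% in Gas and at least 86.4% in Sol and that of Myoz2 at most 9.28% and at least 56.6%, while the Ankrd1 share is at most 8.47% in every library.

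The myozenins, or calsarcins, also divided between the muscles. Myoz1 lies on chromosome 14 from 20649107 to 20656540 and Myoz2 on chromosome 3 from 123006206 to 123035015. Myoz1, the form of fast fibers, ranged from 2444 to 3524 CPM over the 8 Gas libraries and from 447 to 732 CPM over those of Sol, and its log2 fold change was -2.51 in WT (SE 0.240, adjusted p 4.26e-06) and -2.26 in LSD1-mKO (SE 0.184, adjusted p 3.16e-07). Myoz2, the form of slow fibers and heart, ranged from 158 to 274 CPM in Gas and from 555 to 1609 CPM in Sol, with log2 fold changes of 2.92 in WT (SE 0.305, adjusted p 8.98e-06) and 2.20 in LSD1-mKO (SE 0.230, adjusted p 3.73e-06). Neither gene overlapped between muscles in either genotype. Myoz3 had 141 to 208 CPM in WT Gas, 84.7 to 89.9 in WT Sol, 109.7 to 167 in LSD1-mKO Gas and 45.6 to 114 in LSD1-mKO Sol. It was lower in Sol by a log2 fold change of -0.99 in WT (SE 0.284, adjusted p 0.0250) and -0.84 in LSD1-mKO (SE 0.220, adjusted p 0.00984). Without 1 of the WT libraries Gas 1, Sol 1 or Sol 3, the WT difference of Myoz3 lost its call, at -0.83, -1.01 and -0.96 with adjusted p of 0.0819, 0.0769 and 0.0903, as it did with the ribosomal covariate, at -1.03 (adjusted p 0.0556). Per kb of exon, Myoz2 made up 5.30% to 9.28% of the 3 myozenins in Gas and 56.6% to 76.8% in Sol, and Myoz3 1.25% to 2.16% in both muscles.

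Tcap, on chromosome 11 from 98383811 to 98384953, was high in both muscles and varied more between libraries than between muscles. It had 5780.2, 4559.7 and 15845 CPM in WT Gas, 4887, 3640.1, 3823, 4571 and 10845 in LSD1-mKO Gas, 4209, 9731 and 5820 in WT Sol and 2679, 3532, 5771, 3910.5 and 5890.3 in LSD1-mKO Sol. The highest library of 3 of these groups was one of the 3 with a strongly negative length slope. The log2 fold change of Sol over Gas was -0.41 in WT (SE 0.490, adjusted p 0.606) and -0.35 in LSD1-mKO (SE 0.379, adjusted p 0.536). Its sign turned without single libraries, to 0.33 in WT without WT Gas replicate 3 and to 0.0388 in LSD1-mKO without LSD1-mKO Gas replicate 5. In WT it was 0.96 (adjusted p 0.0484) when the ribosomal protein level was a covariate.

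Csrp3, on chromosome 7 from 48830398 to 48848033, had 136, 134 and 551 CPM in WT Gas and 1167, 823 and 779 CPM in WT Sol. In LSD1-mKO it had 581, 698, 283, 183 and 386 CPM in Gas and 2739, 2886, 1768, 1377 and 1451 CPM in Sol. All Sol libraries of a genotype exceeded its Gas libraries, and the log2 fold change was 1.75 in WT (SE 0.537, adjusted p 0.0332) and 2.26 in LSD1-mKO (SE 0.423, adjusted p 0.000890). The WT call was lost without WT Gas 1 or 2 or WT Sol 1 or 3, with log2 fold changes of 1.43, 1.47, 1.57 and 1.89 and adjusted p of 0.107, 0.0910, 0.115 and 0.0585. Without WT Gas replicate 3, which had the highest Csrp3 level of its group, the log2 fold change was 2.74 (adjusted p 0.00162), and with the WT libraries alone it was 1.75 (adjusted p 0.107). The relatives Csrp1 and Csrp2, found mainly outside the sarcomere, had group means of 49.5 to 54.3 CPM and 6.19 to 9.02 CPM and passed in no comparison.

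Ankrd2 and Ankrd1 lie on chromosome 19, from 42036000 to 42045110 and from 36111961 to 36120099. Ankrd2, known for its abundance in slow fibers, had 390.3, 412 and 1255 CPM in WT Gas and 2094, 2413 and 2070.2 CPM in WT Sol. In LSD1-mKO it ranged from 457 to 981 CPM in Gas, with a median of 826, and from 2236 to 3491 CPM in Sol, with a median of 3069. The muscles did not overlap, and the log2 fold change was 1.68 in WT (SE 0.377, adjusted p 0.00574) and 1.95 in LSD1-mKO (SE 0.294, adjusted p 0.000135). In WT it was 2.43 without WT Gas replicate 3, and 2.69 with the ribosomal covariate, and the call was lost with the WT libraries alone, at 1.67 (adjusted p 0.0723). Ankrd1, which is also induced by denervation and by strain, had 30.8, 26.7 and 213 CPM in WT Gas and 49.1, 18.6 and 20.1 CPM in WT Sol. In LSD1-mKO it had 22.2, 68.9, 17.3, 20.9 and 42.8 CPM in Gas and 99.9, 92.4, 52.0, 102 and 69.7 CPM in Sol. WT Gas replicate 3 held the highest value of all 16 libraries, and the muscles overlapped in both genotypes. The log2 fold change of Sol over Gas was -1.61 in WT (SE 0.678, adjusted p 0.112) and 1.27 in LSD1-mKO (SE 0.520, adjusted p 0.0834). Without WT Gas replicate 3 the WT value was 0.0041 (adjusted p 0.998) and the LSD1-mKO value 1.25 (adjusted p 0.0156). The LSD1-mKO difference also passed without LSD1-mKO Gas replicate 2, at 1.69 (adjusted p 0.0331), and that of WT without WT Gas replicate 2, at -2.01 (adjusted p 0.0471). With limma voom, the ribosomal covariate or the LSD1-mKO libraries alone, the LSD1-mKO difference had adjusted p of 0.0256, 0.0234 and 0.0170. Per kb of exon, Ankrd1 made up 0.418% to 8.47% of the sum of both genes. The third muscle ankyrin repeat gene, Ankrd23, had group means of 1859 to 2362 CPM and passed in no comparison.

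Xirp1, an actin-binding repeat protein of remodeling fibers and cell junctions, is encoded on chromosome 9 from 120013755 to 120023598. It had 189.8, 250.1 and 135 CPM in WT Gas and 1831, 271 and 835 CPM in WT Sol. In LSD1-mKO it had 601, 725, 309.9, 191 and 179 CPM in Gas and 2068, 1745, 1376, 866 and 565 CPM in Sol. The muscles did not overlap in WT but overlapped in LSD1-mKO. The log2 fold change was 2.35 in WT (SE 0.650, adjusted p 0.0202) and 1.72 in LSD1-mKO (SE 0.492, adjusted p 0.0171). The WT call was lost without WT Gas 1, WT Gas 3 or WT Sol 1, at 2.35, 2.13 and 1.52 with adjusted p of 0.0560, 0.0772 and 0.161, and the LSD1-mKO call without LSD1-mKO Sol 1, at 1.47 (adjusted p 0.0515). With the ribosomal covariate the values were 1.13 and 1.28 (adjusted p 0.403 and 0.0564), and with the WT libraries alone that of WT was 2.34 (adjusted p 0.0637). Its paralog Xirp2 was higher in Sol in LSD1-mKO, with a log2 fold change of 1.66 (adjusted p 0.000179), and had 0.80 in WT (adjusted p 0.0998).

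Within each muscle, LSD1-mKO was set against WT to ask how the loss of LSD1 bears on these genes under Dex. No gene of the 10 passed the adjusted threshold in either muscle by the edgeR quasi-likelihood test. In Gas 0.0307% of the 13040 genes tested passed, and 1 of the 10, Actn2, had an unadjusted p under 0.05, as did 9.06% of all genes. In Sol 0.967% of the 13342 genes tested passed, and 4 of the 10 had an unadjusted p under 0.05, namely Actn3, Csrp3, Ankrd1 and Ankrd2, as did 15.5% of all genes. DESeq2, the edgeR exact test and limma voom with quality weights each called Actn2 in Gas. Of the 13040 genes there, they called 132, 104 and 340. In Sol all 3 called Csrp3 and Ankrd1, and limma voom also called Actn3. Of the 13342 genes there, they called 605, 560 and 730. In Gas, Actn2 and Actn3 were higher in every LSD1-mKO library than in any WT library, as were 4.13% of all genes, and 6.95% of all genes did not overlap in either direction. In Sol the same held for Actn2, Csrp3 and Ankrd1, against 6.33% of all genes higher and 10.8% in either direction. The median log2 fold change of the 10 genes was 0.23 in Gas and 0.41 in Sol, beside 0.01 and -0.01 over all genes tested. The Gas median was 0.40 without WT Gas replicate 3, and 0.06, 0.05 and 0.15 without WT Gas 1, WT Gas 2 and LSD1-mKO Gas 5.

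**Figure D4:**
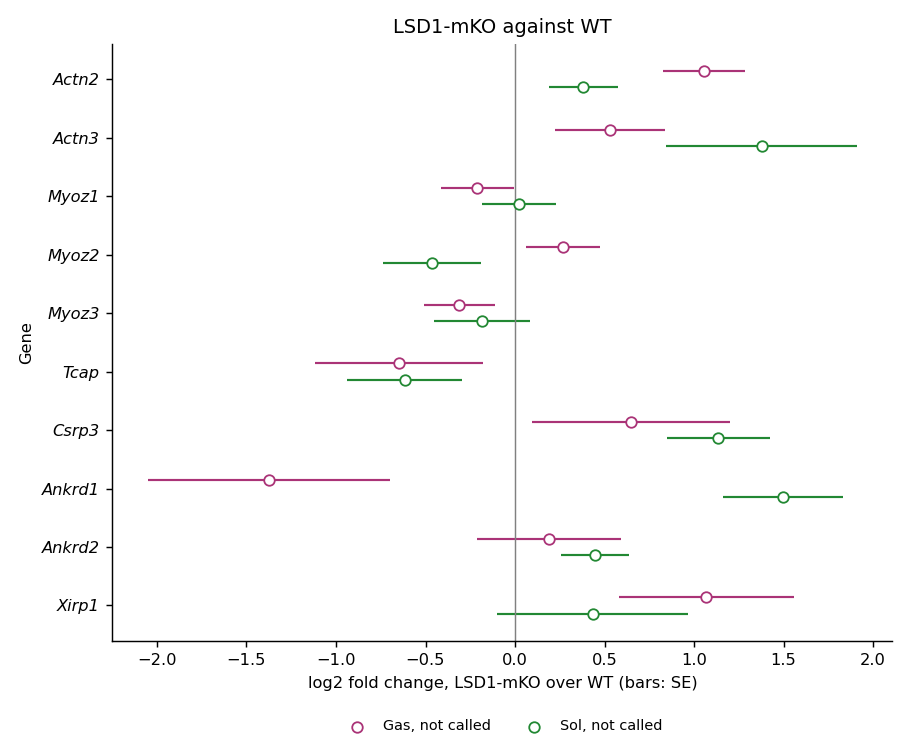
Log2 fold change of LSD1-mKO over WT for each gene in Gas (purple) and Sol (green), with bars of 1 SE; all points are open because no adjusted p was under 0.05. Actn2 in Gas, at 1.05, and Csrp3 and Ankrd1 in Sol, at 1.14 and 1.496, lie furthest from 0 relative to their errors, and Ankrd1 lies at -1.38 in Gas.

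The mean Actn2 level in Gas was 1181 ± 64.2 CPM for WT (SD, n = 3) against 2447 ± 486 CPM for LSD1-mKO (SD, n = 5). Its log2 fold change was 1.05 (SE 0.230, unadjusted p 0.000912, adjusted p 0.248). The size held between 0.96 and 1.16 when single libraries were left out, with adjusted p from 0.208 to 0.640, and it was 1.02 without WT Gas replicate 3. The adjusted p was 0.000482 by DESeq2, 0.0135 by the edgeR exact test, 0.0187 by limma voom and 0.0278 with all 16 libraries in one quasi-likelihood fit. In Sol the same gene had 5519 ± 658 CPM in WT and 7243 ± 882 CPM in LSD1-mKO, or 0.38 on the log2 scale (SE 0.193, adjusted p 0.376). For Actn3 the log2 fold change was 0.53 in Gas (SE 0.308, adjusted p 0.577) and 0.23 without WT Gas replicate 3, whose Actn3 level was the lowest of the Gas libraries. In Sol Actn3 had 305 ± 270 CPM in WT and 806 ± 187 CPM in LSD1-mKO, or 1.38 on the log2 scale (SE 0.533, adjusted p 0.246). That value was 0.91 without WT Sol replicate 1 and 2.34 without WT Sol replicate 2, and the gene passed in a fit that took the ribosomal protein level into account (adjusted p 0.0318) and by limma voom (adjusted p 0.0247).

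The mean Csrp3 level in Sol was 923 ± 213 CPM for WT against 2044 ± 718 CPM for LSD1-mKO. Its log2 fold change was 1.14 (SE 0.290, unadjusted p 0.00226, adjusted p 0.0934), and leaving out single libraries gave 0.98 to 1.34 with adjusted p from 0.0594 to 0.274. The adjusted p was 0.00272 by DESeq2, 0.00757 by the edgeR exact test, 0.0354 without a filter on low counts and 0.372 with all 16 libraries in one fit. In Gas it was 0.65 on the log2 scale (SE 0.554, adjusted p 0.672) and 1.67 without WT Gas replicate 3 (adjusted p 0.488). Ankrd1 had 29.3 ± 17.2 CPM in WT Sol and 83.1 ± 21.6 CPM in LSD1-mKO Sol, or 1.496 on the log2 scale (SE 0.336, unadjusted p 0.000908, adjusted p 0.0641). It passed without WT Sol replicate 1, at 2.10 (adjusted p 0.0254), and its adjusted p over the 7 other fits that left out 1 library reached 0.233. The adjusted p was 0.000591 by DESeq2, 0.00163 by the edgeR exact test, 0.0133 without a filter and 0.357 with all 16 libraries in one fit. In Gas Ankrd1 had 90.3 ± 107 CPM in WT and 34.4 ± 21.7 CPM in LSD1-mKO, or -1.38 on the log2 scale (SE 0.676, adjusted p 0.555). Without WT Gas replicate 3, which had 213 CPM, the sign turned and the value was 0.27 (adjusted p 0.953). Ankrd2 had a log2 fold change of 0.44 in Sol (SE 0.190, unadjusted p 0.0389, adjusted p 0.291) and 0.19 in Gas (SE 0.402, adjusted p 0.870), the latter 0.96 without WT Gas replicate 3.

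For the other genes the spread between libraries was of the size of the difference or larger. Xirp1 had 192 ± 57.5 CPM in WT Gas and 401 ± 248 CPM in LSD1-mKO Gas, or 1.07 on the log2 scale (SE 0.489, adjusted p 0.555), and 0.43 in Sol (SE 0.534, adjusted p 0.756), where leaving out single libraries moved it between -0.01 and 1.25. For Tcap the log2 fold change was -0.65 in Gas (SE 0.468, adjusted p 0.628) and -0.62 in Sol (SE 0.323, adjusted p 0.399), and the Gas value turned to 0.11 without WT Gas replicate 3. The 3 myozenins had log2 fold changes between -0.31 and 0.27 in Gas and between -0.46 and 0.02 in Sol, with adjusted p of at least 0.456. The value of -0.46 in Sol was that of Myoz2, which had 1516 ± 102 CPM in WT and 1111 ± 385 CPM in LSD1-mKO (adjusted p 0.456).

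Whether the genotype difference itself differed between muscles was tested as an interaction over the 16 libraries. None of the 10 passed, nor did any of the 13749 genes by the quasi-likelihood test (0%), although 671 (4.88%) had an unadjusted p under 0.05, Actn2 and Ankrd1 among them, and DESeq2 called 21 genes and limma voom 103, none of the 10 among them. Ankrd1 had the largest difference of the 10, 2.89 on the log2 scale (SE 0.857, unadjusted p 0.00363, adjusted p 0.668), which was 1.24 without WT Gas replicate 3 (adjusted p 0.847). Actn2 had -0.66 (SE 0.271, unadjusted p 0.0263, adjusted p 0.987), a larger log2 fold change in Gas than in Sol. For the other 8 the unadjusted p was at least 0.0641.

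Markers of denervated or immature fibers (Myh3, Myh8, Chrna1, Chrng, Myog, Ncam1, Gadd45a and Runx1) were summed because Ankrd1 and Csrp3 are known to respond to denervation. The sum was 86.3 to 148 CPM in WT Gas and 153 to 471 CPM in LSD1-mKO Gas, and 150.0 to 179 CPM in WT Sol and 282 to 466 CPM in LSD1-mKO Sol. The genotypes did not overlap in either muscle, and neither did they for 6.95% of all genes tested in Gas and 10.8% in Sol. Such a share for sums of markers is not given, for this sum or those below, and sums of other lists were looked at too. Of the markers tested, 7 of 7 in Gas and 7 of 8 in Sol had a positive log2 fold change, with 0 called in both. The part of this shift in the Actn2, Csrp3 and Ankrd1 differences was not tested. Of the sums in Sol, Myh3 alone made up 53.9 CPM on average in WT and 150 CPM in LSD1-mKO. Gadd45a is also an atrophy gene that the paper had reported as raised in LSD1-mKO Gas. Summed slow fiber markers were 734 to 1749 CPM in WT Gas and 1286 to 2001 CPM in LSD1-mKO Gas, and summed fast fiber markers 106658 to 135865 CPM and 67419 to 111627 CPM. Both overlapped between genotypes in each muscle. In Gas all 5 slow markers had a positive and 5 of the 6 fast markers a negative log2 fold change, with medians of 0.42 and -0.56 and 0 called. In Sol 3 of the 5 slow and 4 of the 6 fast markers had a negative one, with 0 called. The fast markers there ran from -1.43 to 2.60. Mean Myh1 was 7657 CPM in WT Sol and 2864 CPM in LSD1-mKO Sol, and mean Myh4 74.7 and 463 CPM. The part of these markers in the differences of either muscle was not tested. Fibroblast markers (Col1a1, Col3a1, Pdgfra and Dcn) also stood apart in Gas, at 1090.4 to 1653 CPM in WT and 765 to 903 CPM in LSD1-mKO, and satellite cell markers (Pax7 and Myf5) in Sol, at 4.97 to 5.47 CPM in WT and 5.82 to 7.85 CPM in LSD1-mKO, and their part was not tested either. The heart also makes several of these proteins, and the cardiac markers Myh6, Nppa, Nppb and Tnni3 together reached at most 3.84 CPM in Gas and 18.6 CPM in Sol.

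Other genes of the Z-disc and of load signaling were taken from lists. Of 24 Z-disc partners, among them myotilin, desmin, filamin C and titin, 0 passed between genotypes in either muscle, and 15 of 23 tested in Gas and 17 of 24 in Sol had a positive log2 fold change, with medians of 0.18 and 0.10. Between muscles 5 of the 24 were higher and 3 lower in Sol in WT, beside 8.75% and 8.25% of all genes, and 9 were higher and 3 lower in LSD1-mKO, beside 12.9% and 11.6%. The 3 lower genes were Pdlim3, Pdlim7 and Synm in both genotypes, with log2 fold changes of -1.07, -1.50 and -0.85 in WT (adjusted p 0.0259, 0.000927 and 0.00944). Those higher included Cryab, the chaperone of desmin and filamin, at log2 fold changes of 1.36 in WT (adjusted p 0.0235) and 1.83 in LSD1-mKO (adjusted p 0.000323), and Fhl1, a LIM protein of slow fibers, at 2.40 and 2.49 (adjusted p 0.0123 and 0.000990). Of 5 calcineurin genes, the phosphatase that myozenins bind, the feedback inhibitors Rcan1 and Rcan2 were higher in Sol in both genotypes, with log2 fold changes of 1.75 and 1.83 in WT (adjusted p 0.00413 and 0.000294), and 0 passed between genotypes. The catalytic subunit Ppp3cb was lower in Sol in both, at -0.58 in WT and -0.51 in LSD1-mKO (adjusted p 0.0263 and 0.00933), and Ppp3ca was lower in WT, at -1.08 (adjusted p 0.0224). The median of the 5 was -0.46 in WT and -0.21 in LSD1-mKO. Of 17 genes of SRF, Hippo and stretch signaling, 0 passed between genotypes. In LSD1-mKO 5 of them were higher in Sol (Tead1, Tead4, Egr1, Cyr61 and Ctgf) and Lats1 lower, and in WT 1 was higher, Tead1, a factor that binds the MCAT box, at 1.26 (adjusted p 0.00559), and 1 lower, Srf, at -0.57 (adjusted p 0.0395), so that 2 of 17 passed in WT beside 17.0% of all genes. Of 6 further genes, the paralogs Actn1, Actn4, Csrp1 and Csrp2 and the LIM proteins Fhl2 and Fhl3, 0 passed between genotypes. Fhl2 was higher in Sol in both genotypes, at 2.80 in WT (adjusted p 0.000353) and 2.74 in LSD1-mKO (adjusted p 1.55e-05). Its relative Fhl3 was lower in Sol in LSD1-mKO, at -1.35 (adjusted p 0.00325).

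Within groups, after each of the 4 groups was centered on its mean log2 CPM, some of the genes moved together over the 16 libraries. Csrp3 had a Pearson r of 0.83 with Ankrd2 and 0.78 with Ankrd1, and Myoz1 had 0.71 with Tcap, while Tcap and Xirp1 had -0.69. In WT Gas, replicate 3 had 551, 1255 and 213 CPM of Csrp3, Ankrd2 and Ankrd1, and the others at most 136, 412 and 30.8. The part of that library in the correlations was not tested. These correlations are descriptions over libraries that share muscles and differ in length slope. Tcap, whose exons come to 948 bases, had an r of -0.89 with the length slope and 0.88 with the ribosomal protein level. Xirp1, with 5839 bases the longest of the 10, had 0.56 with the length slope. Ankrd2, with 1100 bases, had -0.72, Myoz1, with 1289 bases, -0.64, and Csrp3, with 935 bases, -0.45, and Actn2 and Actn3 lay at 0.17 and -0.12. The part of the length slope in the levels of these genes was not tested beyond a fit with the slope as a covariate, in which none of the 10 passed between genotypes and Tcap had a log2 fold change of 0.0328 in Gas.

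**Figure D5:**
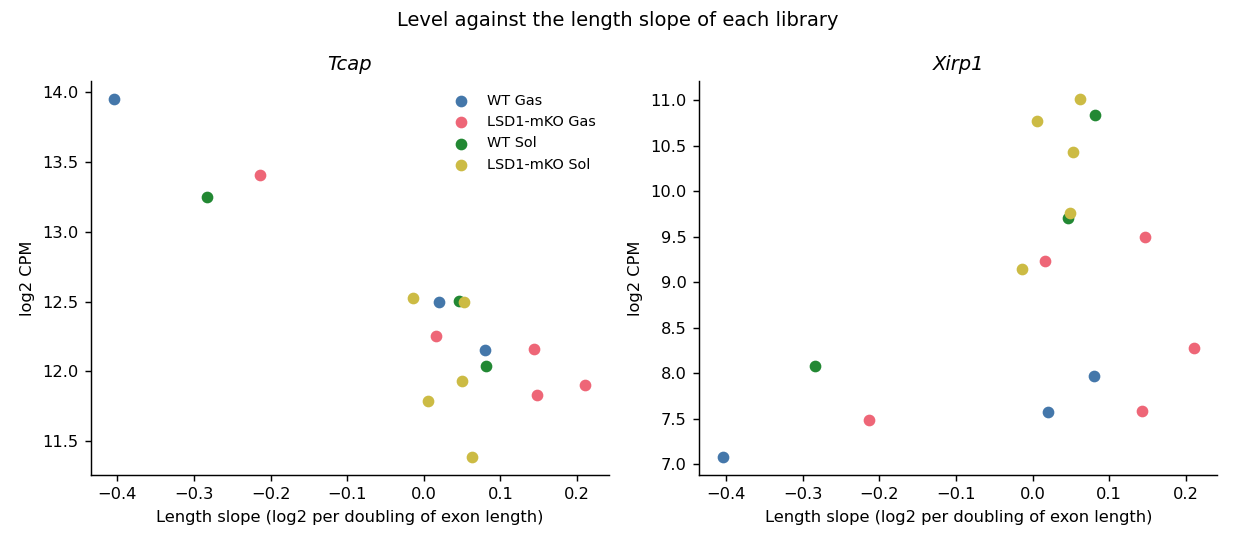
Log2 CPM of Tcap (left) and Xirp1 (right) against the length slope of each of the 16 libraries, in log2 units per doubling of exon length, colored by genotype and muscle. The 3 libraries with slopes of -0.40, -0.28 and -0.21 hold the highest Tcap levels, at 15845, 9731 and 10845 CPM, and the lowest Xirp1 levels of their groups.

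By the same centered correlation, the genes most like each of the 10 were sought among the 10767 genes that averaged 50 reads or more. They are the highest of many correlations and carry no p. The part of the length slope, of the ribosomal protein level and of WT Gas replicate 3 in them was not tested. Actn3 was closest to Mybpc2, the fast myosin binding protein C, with an r of 0.97, followed by Xrcc1 and Pcsk4 at 0.85 each. Actn2 was closest to Dis3l2 (0.84), Atg16l2 and Dpagt1. Myoz1 went with Aldoa (0.95), Iscu and Ckm, of which Aldoa and Ckm are enzymes of glycolysis and of the creatine kinase reaction in muscle. Myoz2 went with Smpx (0.92), a small Z-disc partner, Pla2g16 and Nfib, and Myoz3 with Actr3b (0.91), Adck1 and Ola1. Tcap was closest to Rtn2, Hsd17b10 and Ddrgk1, at 0.97 each. Csrp3 was closest to N6amt1 (0.94), Cryab (0.91) and 2810004N23Rik, and in LSD1-mKO Sol Cryab had a log2 fold change over WT of 0.87 (adjusted p 0.124). Ankrd1 was closest to Sdcbp (0.95), Clcn4-2 and Tfg, Ankrd2 to Txnrd2 (0.97), Stard3nl and Tmed2, and Xirp1 to Usp28 (0.97), Rock2 (0.96) and Dnajc5.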

How the data were processed

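The authors aligned 75 bp single-end reads of poly(A) RNA to mm10 with STAR, and featureCounts 1.5.2 counted them per gene, as named in the file headers. The deposited tables hold raw read counts, not normalized. No strand option is named, so reads of overlapping or antisense genes cannot be told apart. The authors' deposited tables of fold changes and p-values were not used.

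Counts were analyzed with edgeR 4.0.16 in R 4.3.3. Genes were kept by filterByExpr (minimum count 10), scaled by TMM and tested two-sided by quasi-likelihood F-tests, with Benjamini-Hochberg adjustment over all genes tested, at 0.05. The genotype tests used the 8 libraries of a muscle, and the others all 16. SEs were obtained as the size of the log2 value over the root of F. Alternatives used DESeq2 1.42.0, limma 3.58.1 and the settings named with the results, and scripts were tested on simulated data. Exon lengths and coordinates come from GENCODE vM21 (GRCm38), and 96.8% of the genes used for the length slope had a length.

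The genes and lists were chosen with earlier results of these data known. All 10 were named whatever their values, with list genes named as partners or paralogs and the 3 genes most correlated with each. Limma voom, the length covariate and leaving out WT Gas 3 with LSD1-mKO Gas 5 were chosen after seeing the data. The labels do not say that same-numbered Gas and Sol libraries came from the same mouse. In LSD1-mKO their deviations correlated at 0.30 to 0.46 in the 5 pairs of equal number. The main fits treated all libraries as independent, so the p-values between muscles and of the interaction take no account of such pairs. No sequence of Myoz3 was used here.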

Additional observations from a re-analysis of the deposited data

Results flagged for a closer look

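In the 20 groups of 5 LSD1-mKO libraries, 10 genes in 2 muscles, the library furthest from the others was compared with Dixon's critical value for 5 samples, on the log2 CPM scale. Chance flags about 1 in 20 such groups, and 3 exceeded it. Actn3 was high in LSD1-mKO Gas replicate 1, at 19706 CPM against 16182.5 CPM in the next library, a gap of 0.909 of the range. In LSD1-mKO Sol, Actn3 was low in replicate 4, at 488 CPM against 819 CPM in the next, a gap of 0.764 of the range. Tcap was high in LSD1-mKO Gas replicate 5, at 10845 CPM against 4887 CPM in the next, a gap of 0.730 of the range, and this library also had a length slope of -0.21. The groups of 3 WT libraries were not checked in this way.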

How the results depend on the processing

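The log2 fold changes of every comparison other than Sol against Gas in LSD1-mKO rest on groups of 3 WT libraries. Sol against Gas in LSD1-mKO shares its estimate of the spread with the WT libraries. There the adjusted p of Ankrd1 went from 0.0834 to 0.0156 without WT Gas replicate 3, which decides several other values too. The number of the 10 genes called in Gas was 0, and 1 with DESeq2, the exact test, limma voom or all 16 libraries in one fit. In Sol it was 0, and 2 without a filter, with DESeq2, the exact test, the replicate block or the ribosomal protein covariate, and 3 with limma voom. The numbers used in the replicate block are not shown to pair WT with LSD1-mKO libraries. Leaving out single libraries gave 0 in Gas, 0 to 1 in Sol, 5 to 8 for Sol against Gas in WT and 7 to 9 in LSD1-mKO. With the libraries of WT alone, 5 of the 10 were called between muscles, Actn2, Actn3 and the 3 myozenins.

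Over all genes, 4 were called in Gas, and 10 without a filter, 132 with DESeq2, 104 with the exact test, 340 with limma voom, 62 with all 16 libraries and 1 to 7 without single libraries. In Sol 129 were called, and 336 without a filter, 605 with DESeq2, 560 with the exact test, 730 with limma voom, 412 with the replicate block, 292 with the ribosomal protein covariate, 73 with the length covariate and 11 to 228 without single libraries. The interaction had 0, and 21 with DESeq2, 103 with limma voom, 1 with the replicate block and 0 to 1 without single libraries. Between muscles in WT 2337 were called, and 3806 with the length covariate, 5599 with limma voom, 1011 with WT alone and 1132 to 2839 without single libraries. In LSD1-mKO 3367 were called, 5463 with the length covariate and 2618 to 4409 without single libraries.

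Signs turned, with the cause not tested, as follows. In Gas, Tcap went from -0.65 to 0.0618 with the ribosomal protein covariate and 0.0328 with the length covariate, and Ankrd1 from -1.38 to 0.0188 with the ribosomal protein covariate, 0.20 with limma voom and 0.19 without WT Gas 3 and LSD1-mKO Gas 5. In the interaction, Tcap went from 0.06 to -0.0147 without a filter, -0.00516 with the replicate block, -0.60 with the ribosomal protein covariate, -0.25 with the length covariate and -0.11 with limma voom. With the ribosomal protein covariate the interaction of Csrp3 was -0.25, that of Ankrd2 -0.34 and that of Xirp1 0.15. With limma voom that of Csrp3 was -0.38 and that of Ankrd2 -0.34, and with the length covariate that of Ankrd2 was -0.0878. Between muscles, Tcap was 0.96 in WT and 0.36 in LSD1-mKO with the ribosomal protein covariate, and 0.0120 in WT with limma voom.

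Without single libraries, the log2 fold changes in Gas ranged from -1.04 to 0.11 for Tcap, -1.79 to 0.27 for Ankrd1 and -0.0871 to 0.96 for Ankrd2. In Sol they ranged from -0.0788 to 0.28 for Myoz1 and -0.00850 to 1.25 for Xirp1. In the interaction they ranged from -0.70 to 0.43 for Tcap, -0.51 to 0.83 for Csrp3, -0.50 to 0.55 for Ankrd2, -1.08 to 0.18 for Xirp1 and -0.0392 to 0.27 for Myoz3. Between muscles they ranged from -0.78 to 0.33 for Tcap and -2.18 to 0.00412 for Ankrd1 in WT, and -0.49 to 0.0388 for Tcap in LSD1-mKO.

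The replicate numbers correlated at -0.63 to 0.18 between the muscles of WT, at -0.20 to 0.41 between genotypes in Gas and at 0.00 to 0.19 in Sol. These correlations do not show that the numbers pair those libraries. With only 3 WT libraries in a muscle, centered on their mean, they cannot exclude it either. The replicate block called Csrp3 and Ankrd1 in Sol (adjusted p 0.0284 and 0.0259) and changed no other call among the 10 genes in any comparison. Replicates 4 and 5 occur only in LSD1-mKO, so the blocked genotype difference rests on replicates 1 to 3. Since their numbers are not shown to pair WT with LSD1-mKO, those 2 calls carry little weight. In LSD1-mKO each of the 5 Gas libraries correlated best with the Sol library of its own number.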
